A study of Mus musculus with 6 samples.

Results

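The calpains are cysteine proteases of the cytosol that cut their substrates at limited sites. Calpastatin is the dedicated inhibitor of those called conventional, which are described below. The 9 genes described here are Capn1, Capn2, Capn3, Capn5, Capn6, Capn7 and Capn10, which encode calpains, Capns1, which encodes the regulatory small subunit, and Cast, which encodes calpastatin. They were found by symbol among the 23366 genes of the deposited table, and all 9 were present. RNA had been sequenced from submandibular gland epithelial cells, a salivary gland preparation, of adult mice aged 12 weeks, in 3 libraries from p63 knockout mice and 3 from p63 wild-type mice. The gene knocked out, Trp63, encodes p63, a transcription factor that marks and maintains basal cells of epithelia. The labels do not say how or in which cells the gene was deleted, on which strain, or how mice were allotted to libraries, so the spread between libraries may be in part technical. The title of 1 wild-type library carries the letter C in place of WT.

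The conventional calpains are heterodimers. Capn1 and Capn2 encode alternative large catalytic subunits, both pair with the Capns1 product, and both are switched on by calcium and held back by calpastatin. The other calpains act without this small subunit in most settings, and some are restricted to particular tissues. Capn3 is best known from skeletal muscle, where its product binds titin and where its loss in people causes a limb-girdle muscular dystrophy.

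The family was chosen by the knockout against wild-type difference of Capn3, the member with the greatest one, so the values of that contrast below are descriptions. The sequences upstream of its start sites are therefore shown. RefSeq's promoter table (build GRCm38.p6, which is not the mm9 build of the measurements) matched all 9 members but Capn5 by symbol, and lists 2 start sites for Capn3 on chromosome 2, plus strand. The 250 bases before each are given 5′ to 3′, and capitals mark a CAGCTG hexamer, which muscle bHLH factors can bind, and a match to the MEF2 consensus, the binding site of a family of muscle transcription factors.
Capn3 upstream start, chr2:120463343-120463592: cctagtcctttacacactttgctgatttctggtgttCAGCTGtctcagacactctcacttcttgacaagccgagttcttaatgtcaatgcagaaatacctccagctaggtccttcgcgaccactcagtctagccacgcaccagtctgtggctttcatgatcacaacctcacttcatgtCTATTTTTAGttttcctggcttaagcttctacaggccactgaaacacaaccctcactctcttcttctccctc
Capn3 downstream start, chr2:120476659-120476908: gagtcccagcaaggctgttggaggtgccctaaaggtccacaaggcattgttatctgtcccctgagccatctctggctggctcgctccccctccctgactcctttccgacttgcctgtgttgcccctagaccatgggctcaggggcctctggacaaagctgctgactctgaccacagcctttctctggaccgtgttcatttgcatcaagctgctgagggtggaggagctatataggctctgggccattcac
The upstream window held 1 CAGCTG and 1 MEF2 match, and the downstream window held neither. Searched on both strands, CAGCTG occurred in 13.0% and the MEF2 consensus in 2.92% of 32841 such windows of all genes. TATAAA (12.4% of windows) and the half-site bound by the p53 family, to which p63 belongs (7.13% of windows), had 0 matches in both Capn3 windows. Among the other matched members, a Cast window held 1 half-site and another Cast window held 1 CAGCTG. The CAGCTG and MEF2 searches were added after the Capn3 values were known, and a match is a run of letters, not a shown binding site. The values below are per gene, so they do not say which start was used.

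Values are TPM, a transcript abundance corrected for gene length and scaled to 1000000 per library, so sequencing depth is unknown. Knockout library 3 stood apart: 82.7% of the 11268 genes tested lay below their wild-type mean in it, against 35.4% and 36.5% in knockout libraries 1 and 2, and its 50 most abundant genes took 80.3% of the TPM, against 69.2% to 75.9% in the other libraries. It had the lowest value of all 6 libraries for 6 of the 9 members. Trp63 itself measured 1.59, 0.816 and 1.76 TPM in knockout libraries 1, 2 and 3, against 3.48, 1.85 and 3.68 TPM in wild-type libraries 1, 2 and 3. Its groups did not overlap, but by a thin margin (1.76 against 1.85 TPM), and 15.6% of all genes tested were likewise apart as lower. The log2 fold change of Trp63 was -0.74 (SE 0.27, limma adjusted p = 0.27). In GENCODE M21, exons of Capn1, Capn2, Capn10 and Capns1 share 306, 290, 639 and 54 bases with antisense transcripts, whose reads cannot be told apart from theirs unless strand was used in counting, and exons of Capn3, Capn5 and Capn7 share none. Exons of Capn6 share 122 bases with a miRNA gene, Gm47298, on the same strand.

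Capn3 measured 1.74, 0.857 and 1.03 TPM in knockout libraries 1, 2 and 3, against 18.5, 13.7 and 14.9 TPM in wild-type libraries 1, 2 and 3. The knockout libraries were all low and the wild-type libraries all high, with a wide gap between them. The mean was 1.21 ± 0.466 TPM in knockout glands and 15.7 ± 2.51 TPM in wild-type glands (SD, n = 3 each), and the wild-type mean was 13.0 times the knockout mean. On the log2(TPM + 1) scale, which understates the change of low genes, the difference was -2.93 (SE 0.25). In the knockout 2 of the 3 libraries lay close to 1 TPM, so the size of the fold rests on low values. It was -3.64 with a pseudocount of 0.1 TPM. Knockout library 3 did not set this value, since without it the difference was -2.88.

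**Figure D1:**
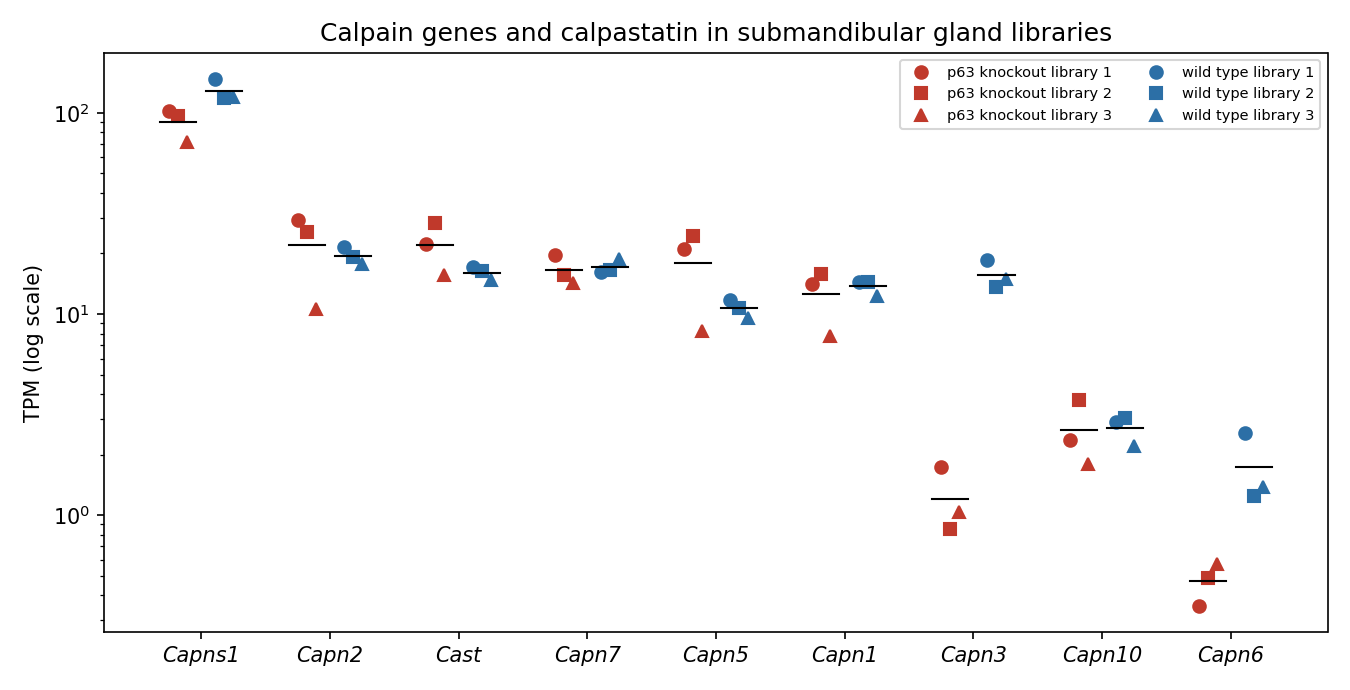
TPM of each gene on a log axis, ordered by mean level, with each point a library and each black line a group mean (knockout left, wild type right). Capn3, Capn6 and Capns1 do not overlap between the groups, and the triangle of knockout library 3 lies below the other points for Capn1, Capn2, Capn5, Capn7, Capn10 and Capns1.

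Over all genes, 44 of 11268 passed limma's test (adjusted p under 0.05, Benjamini-Hochberg), which is 0.390% of them, and 0.319% passed as lower in the knockout. Of the 9 members, all of which passed the filter on low values, 1 was among these, as lower, and it was Capn3. Since the members were chosen with this contrast known, nothing is read from that count. Its call was lost when any 1 of the wild-type libraries was left out, at log2 fold changes of -2.81, -3.02 and -2.96 without wild-type libraries 1, 2 and 3. The groups did not overlap for 3 members, Capn3, Capn6 and Capns1, all lower in the knockout, and for 0 members that were higher. Among all genes tested the groups were apart as lower in the knockout for 15.6% and as higher for 5.42%. The median log2 fold change of the 9 members was -0.07, against 0.09 over all genes tested.

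The conventional large subunits overlapped between the groups. Capn1, which encodes the catalytic subunit of µ-calpain, measured 14.1, 15.8 and 7.81 TPM in knockout libraries, against 14.4, 14.4 and 12.3 TPM in wild-type libraries. The difference on the log2 scale was -0.17 (SE 0.29). Capn2, which encodes that of m-calpain, measured 29.5, 25.7 and 10.6 TPM in knockout libraries, against 21.5, 19.2 and 17.7 TPM in wild-type libraries. Here knockout libraries 1 and 2 were above every wild-type library and knockout library 3 was below every one, for a log2 fold change of 0.05 (SE 0.37). Its sign followed the scaling, being -0.01 with median-of-ratios scaling and -0.10 with quantile normalization.

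Capns1, the small subunit that both conventional calpains need, was the most abundant member. It measured 102, 96.5 and 71.5 TPM in knockout libraries 1, 2 and 3, against 147, 119 and 119 TPM in wild-type libraries 1, 2 and 3. All knockout libraries lay below all wild-type libraries, with means of 90.0 ± 16.3 TPM in knockout glands and 128 ± 16.0 TPM in wild-type glands (SD, n = 3 each). The log2 fold change was -0.52 (SE 0.21), and -0.36 without knockout library 3.

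Cast, the inhibitor, measured 22.4, 28.5 and 15.6 TPM in knockout libraries, against 17.1, 16.4 and 14.7 TPM in wild-type libraries. Knockout libraries 1 and 2 were above all wild-type libraries, and knockout library 3 lay within their range. The log2 fold change was 0.40 (SE 0.26) with all libraries. In the GENCODE M21 annotation, exons of Cast share 834 bases with exons of Erap1, an aminopeptidase gene on the opposite strand, and the strand setting of the counting was not given. Erap1 stood at 7.24, 4.40 and 4.72 TPM in knockout libraries, against 5.63, 5.63 and 7.26 TPM in wild-type libraries. The part of these shared bases in the Cast values was not tested.

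Among the calpains outside the conventional pair, Capn6 was lower in every knockout library. Its product lacks the active-site cysteine, so it is not a protease, and it is known to stabilise microtubules. It measured 0.355, 0.489 and 0.573 TPM in knockout libraries, against 2.58, 1.25 and 1.37 TPM in wild-type libraries. It was tested only because all wild-type libraries reached 1 TPM, while all knockout libraries lay under that level. The log2 fold change was -0.86 (SE 0.22). It was -1.63 with a pseudocount of 0.1 TPM.

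Capn5, a calpain related to the nematode sex determination protein TRA-3, measured 21.0, 24.3 and 8.21 TPM in knockout libraries 1, 2 and 3. It measured 11.7, 10.8 and 9.52 TPM in wild-type libraries 1, 2 and 3. Knockout libraries 1 and 2 were thus well above wild type and knockout library 3 below it, and the log2 fold change was 0.57 (SE 0.39). Capn7, whose product binds proteins of the ESCRT-III membrane remodelling machinery, ranged from 14.2 to 19.6 TPM in knockout glands and from 16.2 to 18.8 TPM in wild-type glands (log2 fold change -0.07, SE 0.21). Capn10, which human genetics has linked to type 2 diabetes, ranged from 1.80 to 3.75 TPM in knockout glands and from 2.21 to 3.04 TPM in wild-type glands (log2 fold change -0.06, SE 0.25). For both genes the knockout range enclosed the wild-type range.

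**Figure D2:**
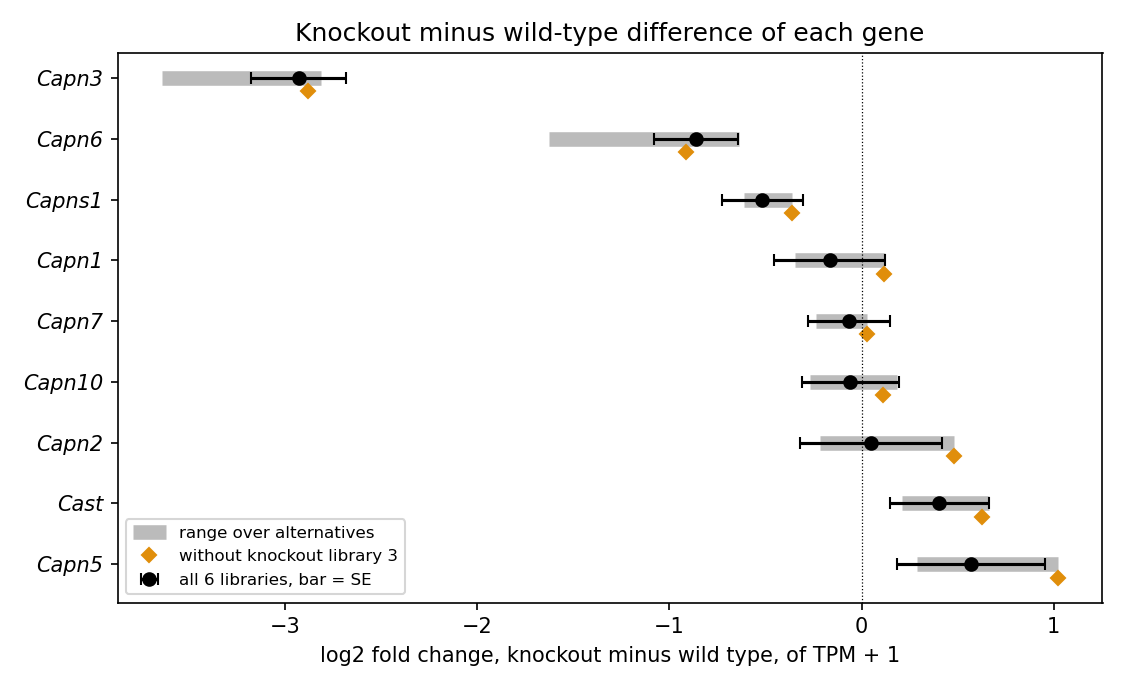
Log2 fold change (knockout minus wild type, of TPM + 1) of each gene, with its SE as a black bar, its range over the alternative settings as a grey band, and its value without knockout library 3 as a diamond. Capn3 lies far to the left of the other genes under every setting, and Capn1, Capn2, Capn7 and Capn10 have bands that cross 0.

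Leaving out knockout library 3 raised the log2 fold change of 8 of the 9 members, all but Capn6. Without it, 5 of the 9 members passed limma's test, 2 lower (Capn3 and Capn6) and 3 higher (Capn2, Capn5 and Cast), but so did 45.5% of all genes tested (33.8% higher and 11.7% lower). In that fit the log2 fold change was 1.02 for Capn5, 0.63 for Cast, 0.48 for Capn2 and -0.91 for Capn6, beside a median over all genes of 0.26. The coefficient of variation of the members ran from 17.0% to 47.7% in the knockout and from 7.79% to 42.2% in wild type, where the highest value was that of Capn6.

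Since TPM is per length, the members can be ordered by level. In the knockout the order from high to low was Capns1, Cast, Capn2, Capn5, Capn7, Capn1, Capn10, Capn3 and Capn6. In wild type it was Capns1, Capn2, Capn7, Cast, Capn3, Capn1, Capn5, Capn10 and Capn6. Capns1 stood above every other member in all 6 libraries, and its range did not meet that of the next gene. Each of the other neighbours in the order of means over all libraries had overlapping ranges. Capn10 was still above Capn6, the next gene, within each of the 6 libraries, while the remaining neighbours changed places between libraries. Capn3 was thus in place 8 by mean in the knockout and in place 5 in wild type, where its range overlapped that of Capn1.

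Ratios between members within a library do not move with the scaling of that library, and they are given as descriptions. Capn3 made up 1.96%, 0.991% and 2.33% of the summed TPM of the 7 calpain genes in knockout libraries 1, 2 and 3, against 21.1%, 17.4% and 19.4% in wild-type libraries 1, 2 and 3. The sum itself overlapped, at 88.6, 86.5 and 44.3 TPM in knockout libraries, against 87.9, 78.8 and 76.9 TPM in wild-type libraries. Calpastatin transcripts relative to Capn1 and Capn2 together stood at 0.514, 0.687 and 0.846 in knockout libraries, against 0.476, 0.487 and 0.489 in wild-type libraries. All knockout libraries were above all wild-type libraries, whose values were nearly equal, and the gap to knockout library 1 was small. The mean log2 ratio was 0.47 higher in the knockout, and 0.30 higher without knockout library 3.

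The small subunit relative to Capn1 and Capn2 together stood at 2.34, 2.33 and 3.88 in knockout libraries, against 4.08, 3.54 and 3.97 in wild-type libraries. Knockout libraries 1 and 2 were lower than wild type, and knockout library 3 was within the wild-type range. Capn2 relative to Capn1 stood at 2.09, 1.62 and 1.36 in knockout libraries, against 1.49, 1.33 and 1.44 in wild-type libraries, and the groups overlapped.

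**Figure D3:**
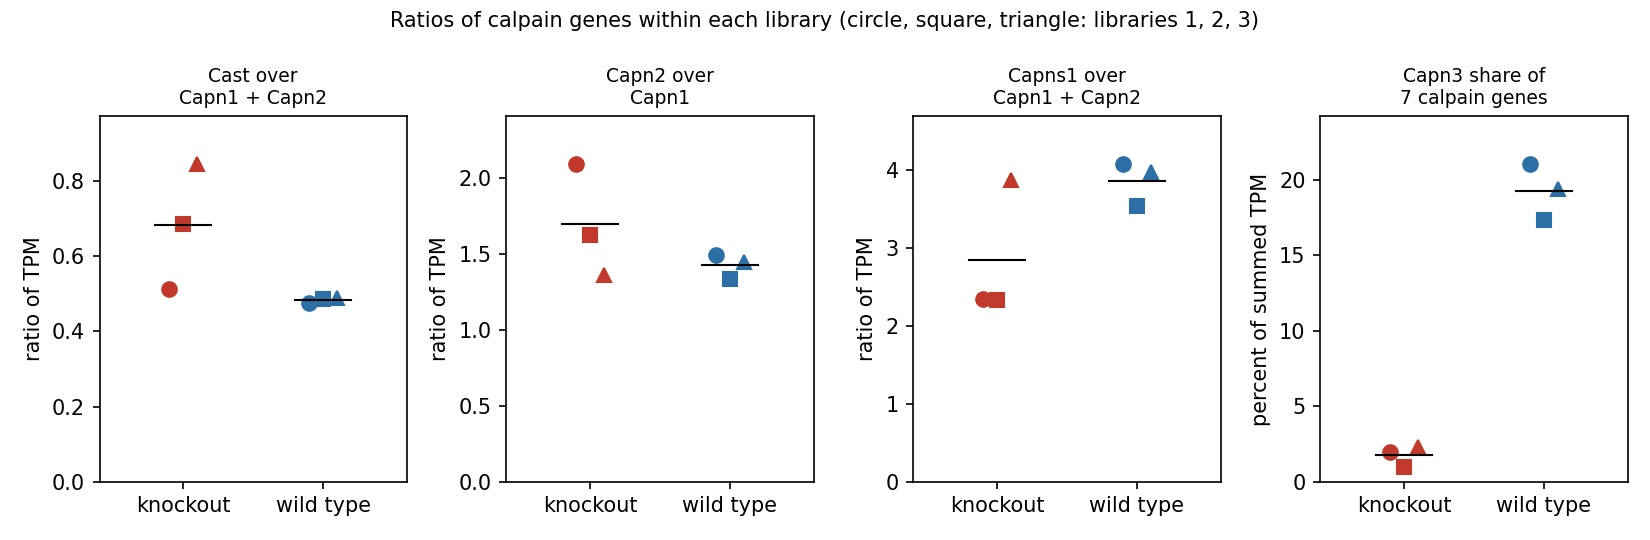
Ratios of TPM within each library, knockout left and wild type right, with each point a library and each black line a group mean. The share of Capn3 is at most 2.33% in the knockout and at least 17.4% in wild type, and the Cast ratio is at least 0.514 in the knockout and at most 0.489 in wild type.

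The rest of the family was nearly silent. Of 8 further family genes in the table, 7 (Capn8, Capn9, Capn11, Capn12, Capn13, Capns2 and Adgb) stayed below the filter, and Capn13 was listed at 0 in all libraries. The exception was Solh, an older symbol of Capn15, the mammalian relative of the fly gene small optic lobes. It measured 10.7, 13.2 and 4.10 TPM in knockout libraries, against 2.92, 5.15 and 3.91 TPM in wild-type libraries, so knockout libraries 1 and 2 were high and knockout library 3 was within the wild-type range (log2 fold change 0.94, SE 0.41, limma adjusted p = 0.32).

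The genes around the calpains were read from 5 lists of family members, reported substrates, partners and calcium regulators. Of their 47 genes 32 were tested, and 0 passed limma's test, against 0.390% of all genes tested. Before adjustment 4 of the 32 were under 0.05, against 15.4% of all genes tested. Their median log2 fold change was 0.01, against 0.09 over all genes tested. Of 17 tested substrates of the conventional calpains 8 had positive and 9 negative differences. The most abundant, the adherens junction gene Ctnnb1, stood at 104 ± 9.48 TPM in knockout glands and 108 ± 3.47 TPM in wild-type glands (SD, n = 3 each, log2 fold change -0.06, adjusted p = 0.88). The substrates with the greatest separation, picked after their values were seen, were the phosphatase gene Ptpn1 and the actin crosslinker gene Flna. Ptpn1 measured 38.4, 37.4 and 11.5 TPM in knockout libraries, against 10.4, 9.89 and 10.9 TPM in wild-type libraries (adjusted p = 0.25). Flna measured 15.5, 11.1 and 17.2 TPM in knockout libraries, against 27.6, 25.3 and 27.3 TPM in wild-type libraries (adjusted p = 0.14).

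Most genes tied to Capn3 in muscle were near 0 here. Of the 6 listed, 4 were below the filter, among them titin (Ttn), which did not exceed 0.0194 TPM in any library. The glycolytic enzyme gene Aldoa measured 197, 193 and 197 TPM in knockout libraries, against 399, 303 and 300 TPM in wild-type libraries (log2 fold change -0.76, SE 0.19, adjusted p = 0.12). Of the 3 listed ESCRT-III partners of Capn7, Chmp1a stood at 45.9 ± 21.8 TPM in knockout glands and 38.1 ± 1.57 TPM in wild-type glands (SD, n = 3 each, adjusted p = 0.87), while Chmp1b differed by -0.64 on the log2 scale (adjusted p = 0.21). Of 9 tested genes of calcium stores and calcium entry, which set the calcium that conventional calpains sense, 5 differences were positive and 4 negative. The most abundant, the store pump gene Atp2a3, stood at 356 ± 82.8 TPM in knockout glands and 483 ± 36.0 TPM in wild-type glands (adjusted p = 0.34).

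The pattern of Capn3 over the 6 libraries was compared with that of each other gene tested, as the root mean square difference of log2(TPM + 1) after each gene was centred on its own mean. The 5 nearest were Gadd45a, a gene of growth arrest (0.29), the kallikrein gene Klk1b24 (0.33), 6330410L21Rik (0.37), the epidermal growth factor gene Egf (0.38) and the synaptotagmin gene Syt16 (0.39). All of them were low in the 3 knockout libraries and high in the 3 wild-type libraries, so this likeness mostly repeats the group difference. The nearest member was Capn6, at 1.06, which placed 429th among the 11267 other genes, followed by Capns1 at 1.22 (place 1189). Within the knockout, Egf and Klk1b24 were highest in library 1 and lowest in library 2, as Capn3 was. Gadd45a was highest in library 2 and 6330410L21Rik in library 3. Syt16 had the same order as Capn3, but at 0.0934, 0.0257 and 0.0579 TPM in knockout libraries 1, 2 and 3, so nothing is read from it. Syt16 was tested only because the wild-type libraries (3.81 to 6.56 TPM) reached 1 TPM.

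**Figure D4:**
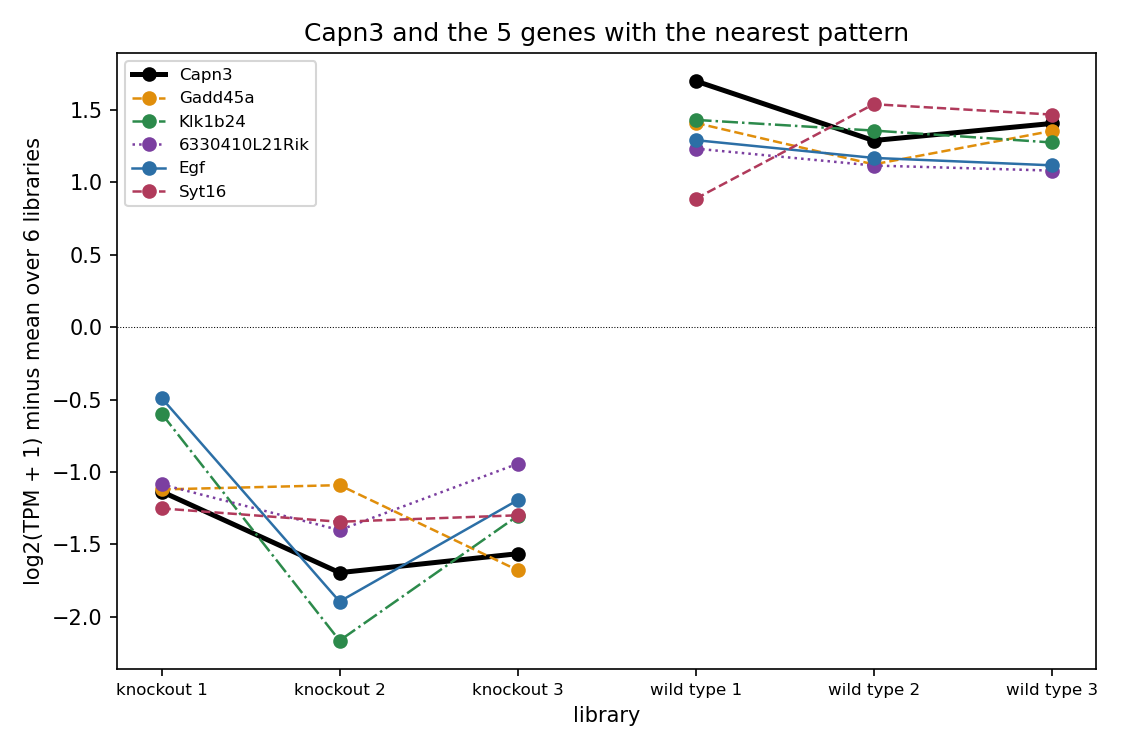
Centred log2(TPM + 1) of Capn3 (thick black) and the 5 genes with the nearest pattern in each library, with lines linking the libraries of a group. All 6 genes are below 0 in every knockout library and above 0 in every wild-type library.

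Markers of several cell types moved with Capn3, and their part in its difference was not tested. In bulk RNA, fewer cells of a type in the isolated preparation and less RNA per cell cannot be told apart. The 9 listed markers of the granular convoluted tubule, the duct segment that stores growth factors and kallikreins, summed to 14072 to 38592 TPM in knockout glands and 125793 to 144813 TPM in wild-type glands. Of these 8 were lower without overlap, as were 15.6% of all genes tested, and Ren1 was listed at 0 in all libraries. The 5 basal markers were Krt14, Krt5, Col17a1, Ngfr and Trp63. Trp63 is the knocked-out gene itself, and its groups were apart by a thin margin (1.76 against 1.85 TPM). All 5 were lower without overlap, with sums of 13.8 to 59.4 TPM in knockout glands and 143 to 164 TPM in wild-type glands. The same was true of all 6 myoepithelial and smooth muscle markers, at 218 to 340 TPM in knockout glands and 579 to 649 TPM in wild-type glands. Of 6 fibroblast markers 4 were lower without overlap (sums of 129 to 268 TPM in knockout glands, 277 to 355 TPM in wild-type glands). Dcn, the most abundant of the 6, overlapped, with means of 155 TPM in knockout glands and 207 TPM in wild-type glands. Of 4 macrophage markers 3 were lower without overlap (sums of 78.8 to 141 TPM in knockout glands, 231 to 284 TPM in wild-type glands).

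Skeletal muscle, the classical site of Capn3, left little RNA in either group. Its 12 listed markers summed to 3.91, 4.50 and 20.9 TPM in knockout libraries 1, 2 and 3, and to 3.64, 6.53 and 17.2 TPM in wild-type libraries 1, 2 and 3. The sums of the groups overlapped, and 1 of the 12 markers was lower in the knockout without overlap. This was Myh2, below the filter, at 0 TPM in all knockout libraries and 0.0190 to 0.0449 TPM in wild-type libraries. Of the 5 markers of melanocytes, another cell type known for Capn3 transcripts, Tyrp1 and Mlana were listed at 0 in all libraries. The sum was 1.38 to 2.41 TPM in knockout glands and 1.12 to 1.17 TPM in wild-type glands, so it was higher in the knockout without overlap. All 5 stayed below the filter, so 0 of them were tested. Of the 5, 1 was higher without overlap, Pmel (0.957 to 1.80 TPM in knockout glands, 0.459 to 0.816 TPM in wild-type glands). Of all genes tested, a set that leaves these markers out, 5.42% were. The sums of the other lists overlapped between the groups, but single markers did not. Lower in the knockout without overlap were 1 of 6 acinar markers, 2 of 5 duct markers (Krt7 and Krt19) and 2 of 4 endothelial markers (Kdr and Tek). Of all genes tested, 15.6% were. The lists were mixed, since the log2 fold change was positive for 1 of 5 tested acinar markers (Slc12a2). It was also positive for 2 of 5 duct markers (Krt18 and Scnn1a) and 2 of 4 endothelial markers (Pecam1 and Cdh5). The sums were 373 to 1259 TPM in knockout glands and 483 to 2659 TPM in wild-type glands for the acinar markers, and 451 to 1308 TPM in knockout glands and 648 to 744 TPM in wild-type glands for the duct markers. They were 11.1 to 18.8 TPM in knockout glands and 14.3 to 15.8 TPM in wild-type glands for the endothelial markers. The acinar sums varied in large part with Dcpp1, at 456, 3.49 and 14.7 TPM in knockout libraries and 2091, 352 and 38.8 TPM in wild-type libraries. For the neighbouring parotid and sublingual glands, Amy1, Bpifa2 and Muc19 together stood at 56.7 to 5255 TPM in knockout glands and 467 to 5866 TPM in wild-type glands. Prol1 was on that list too but encodes a mucin of the submandibular gland itself, so it was left out of the sum after its values were seen. It was higher in the knockout without overlap, by a thin margin (85790 to 144115 TPM in knockout glands, 68796 to 85772 TPM in wild-type glands).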

How the data were processed

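The authors deposited 1 table of TPM, which the labels describe as raw counts normalized for both depth and the length of each gene. Per the labels' protocols, RNA came from isolated submandibular epithelial cells (Direct-zol extraction, Illumina TruSeq RNA libraries). The submitters' processing notes name mm9, featureCounts 1.5.1, TopHat2 2.1.1, DESeq2 1.20.0 and Bowtie2 2.2.6. Not given in the sources used here were the annotation, strand setting, multi-mapping rule and depth.

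Libraries were grouped by genotype label, with replicate numbers given in accession order. The 11268 genes that reached 1 TPM in 3 or more libraries were tested on log2(TPM + 1) with limma 3.58.1 (mean-variance trend) in R 4.3.3. Adjusted p-values are two-sided, Benjamini-Hochberg over these genes, with a threshold of 0.05. No exact test was run on the members, since 3 libraries against 3 allow no p under 0.1. The procedure was run on simulated data with changes planted only in genes of higher mean level than Capn3, so genes as low as Capn3 were not covered.

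The members and lists were chosen with earlier results of these data known. Named genes were the members, the listed family genes, from each other pathway list any that passed and the most abundant, the 5 nearest to Capn3, and Trp63. Others were chosen after their values were seen. Alternatives were a pseudocount of 0.5 or 0.1 TPM, a filter of 5 TPM or none, 3 rescalings, 3 forms of limma moderation or weighting, a block, and leaving out each library. Gene names, exon overlaps and promoters came from GRCm38 tables. Protein features of the members were planned but not analysed here. Figures used matplotlib 3.10.9.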

Additional observations from a re-analysis of the deposited data

How the results depend on the processing

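The family was chosen by the Capn3 difference, so refits of the same libraries describe how its size depends on the settings and add no support. The sign of the Capn3 difference held in all 17 alternatives (-3.64 to -2.81), and its call held in 14. Leaving out each library in turn gave -3.09 to -2.81, and the call was lost without wild-type library 1, 2 or 3 (adjusted p = 0.14, 0.11 and 0.11), where at most 1 of all genes passed limma's test. The count of members passing was 0 to 5 over those fits, 4 with array weights (2 higher, 2 lower) and 1 in every other fit. The count of listed genes around the calpains was 0 to 14 over those fits, 13 with array weights and 0 in every other fit. With array weights 42.8% of all genes passed. The replicate block by neighbouring index numbers left Capn3 at -2.93 (adjusted p = 0.032) with 1 member passing. The labels give the groups no shared replicate numbers, so this pairing is only a reading of the titles. Signs turned where differences were small. With array weights Capn1 was 0.12, Capn10 0.19 and Ctnnb1 0.00048. Capn2 was -0.0076 with median-of-ratios scaling, -0.10 with quantile normalization and -0.016 when rescaled without the 50 most abundant genes. Leaving out each library gave -0.35 to 0.12 for Capn1, -0.21 to 0.48 for Capn2, -0.19 to 0.029 for Capn7, -0.27 to 0.11 for Capn10, -0.10 to 0.021 for Ctnnb1 and -0.16 to 0.60 for Chmp1a. The log2 difference in the Capn3 share of the calpains was -3.54, and -2.72 with 1 TPM added to both terms. The cause of these changes was not tested, and the unknown depth limits the values near 1 TPM.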
